A study of Mus musculus with 12 samples.

Results

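The genes described here are 6 genes of bone matrix and mineralization, Ibsp, Spp1, Sparc, Alpl, Dmp1 and Phex. They were chosen by name for their known roles, with earlier results of these data already known. All 6 were found among the 22317 gene symbols of the count table. They were followed through 12 RNA-seq libraries of wild-type male BALB/c mice aged 8 weeks, in 4 groups of 3. Photothrombosis (PT), in which a laser excites the dye Rose Bengal in the blood and closes the vessels of a small area, was applied either to the skull or to the brain. SB2 and SB4 are labelled as brain cortex on day 2 and day 4 after skull PT, and BS2 and BS6 as interparietal bone on day 2 and day 6 after brain PT. The tissue held the ischemic region and its surroundings, and the methods of the study call the 3 libraries of a condition biological replicates without saying whether animals were pooled. Uninjured and directly injured tissues were not analysed here, so no value is compared with a control. The p-values of the gene tests judge a difference between groups against the spread between the 3 libraries of a group. That spread was estimated with information shared across genes.

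Bone is laid down as a collagen scaffold that osteoblasts secrete and then mineralize with calcium phosphate, and some osteoblasts become enclosed in it as osteocytes. Bone sialoprotein (Ibsp), osteopontin (Spp1) and dentin matrix protein 1 (Dmp1) are acidic phosphoproteins of the SIBLING family that bind the mineral and cell-surface integrins. Osteonectin (Sparc) binds collagen and calcium, tissue-nonspecific alkaline phosphatase (Alpl) removes the pyrophosphate that blocks crystal growth, and Phex is a membrane endopeptidase of osteoblasts and osteocytes whose loss causes phosphate wasting. In the brain, Spp1 is known from activated phagocytes and Sparc from glial and vascular cells.

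The labels of both day 2 groups went against the transcripts they held. The summed level of 8 neuronal marker genes was 36.0 to 82.9 CPM (counts scaled to library size) in the libraries labelled SB2 and 59.8 to 142 CPM in BS6, but 8536 to 8948 CPM in SB4 and 8265 to 8376 CPM in BS2. The osteoblast marker Col1a1, the main collagen of bone, was at 34656 ± 1754 CPM (SD, n = 3) in SB2 and 49569 ± 29556 CPM in BS6, against 3.18 ± 0.748 CPM in SB4 and 7.32 ± 2.99 CPM in BS2. Libraries labelled brain cortex on day 2 were thus rich in bone transcripts, and libraries labelled interparietal bone on day 2 were rich in brain transcripts. Every direction given below between 2 days of 1 label is therefore also a direction between libraries of these different contents, and the day and the content cannot be told apart. An exchange of the titles of the SB2 and BS2 libraries would also give such values. The comparisons between days of 1 label would then be comparisons between tissues, and BS6 against SB2 and BS2 against SB4 would be comparisons between days. Whether this happened was not tested, and the deposited labels are used throughout. The library BS6 replicate 2 stood apart from the other two of its group, with 25692 CPM of 6 neutrophil lineage markers against 1444 and 3500 CPM, and with the lowest level of Col1a1. Total counts ran from 14126082 to 18972654 per library.

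Ibsp, Spp1 and Dmp1 lie on the same strand of 1 stretch of mouse chromosome 5, and the bases before their start sites are shown because they are neighbours of 1 gene family. Sparc, Alpl and Phex, on other chromosomes, moved between the same groups. The sequences are from RefSeq on GRCm38.p6, each of 250 bases ending just before the start site nearest to the 5′ end in GENCODE M21, on the plus strand and written 5′ to 3′. They cover chr5:104299037-104299286 for Ibsp, chr5:104434861-104435110 for Spp1 and chr5:104202367-104202616 for Dmp1. Capitals mark the letters ACCACA (the core bound by RUNX factors), CCAAT and TATAAA on either strand, of which no match overlapped another.
Ibsp: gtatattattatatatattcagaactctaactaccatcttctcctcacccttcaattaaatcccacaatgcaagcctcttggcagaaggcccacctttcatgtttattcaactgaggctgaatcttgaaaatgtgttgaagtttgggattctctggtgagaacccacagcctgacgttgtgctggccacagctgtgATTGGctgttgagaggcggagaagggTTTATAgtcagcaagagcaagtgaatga
Spp1: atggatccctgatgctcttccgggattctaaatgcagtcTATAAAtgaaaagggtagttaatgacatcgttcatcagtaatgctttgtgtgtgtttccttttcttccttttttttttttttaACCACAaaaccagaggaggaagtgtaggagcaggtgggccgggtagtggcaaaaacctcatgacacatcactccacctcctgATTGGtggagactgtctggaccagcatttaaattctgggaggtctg
Dmp1: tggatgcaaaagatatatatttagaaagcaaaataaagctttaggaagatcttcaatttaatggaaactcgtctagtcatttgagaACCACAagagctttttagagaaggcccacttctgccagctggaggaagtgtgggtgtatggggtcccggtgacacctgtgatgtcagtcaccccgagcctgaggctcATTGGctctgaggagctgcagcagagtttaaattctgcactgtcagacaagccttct
CCAAT stood in all 3 as its reverse complement ATTGG, 54 to 50 bases before the start site in Ibsp, 46 to 42 in Spp1 and 57 to 53 in Dmp1. TATAAA stood in Ibsp as TTTATA at 28 to 23 bases and in Spp1 at 211 to 206 bases. ACCACA was at 128 to 123 bases in Spp1 and at 164 to 159 bases in Dmp1. Of 32851 such windows of mouse genes, 33.8% held CCAAT, 12.4% TATAAA, 14.05% ACCACA and 6.02% the letters CACGTG, which none of the 6 windows held. The windows of Sparc, Alpl and Phex held none of these letters. Their GC content was 54.0%, 68.4% and 39.2%, beside 43.6% for Ibsp, 43.6% for Spp1, 45.6% for Dmp1 and a median of 52.4% over all windows. A match of letters is a description and not a binding site. The start site used for Ibsp lies 116 bases inside the gene as GENCODE M21 draws it, and that of Sparc 3103 bases inside, so the Sparc window is not the stretch before its outermost start.

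All 6 genes were high in the libraries labelled SB2 and BS6 and low in those labelled SB4 and BS2. Together they took 2.08% to 2.48% of all counts in SB2 and 1.33% to 3.73% in BS6, but 0.0115% to 0.0136% in SB4 and 0.0121% to 0.0151% in BS2. The distance between high and low libraries was not the same for each gene. Ibsp went from a mean of 3215 CPM in SB2 to at most 3 counts per library in SB4, whereas Sparc kept more than 100 CPM in every library.

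**Figure D1:**
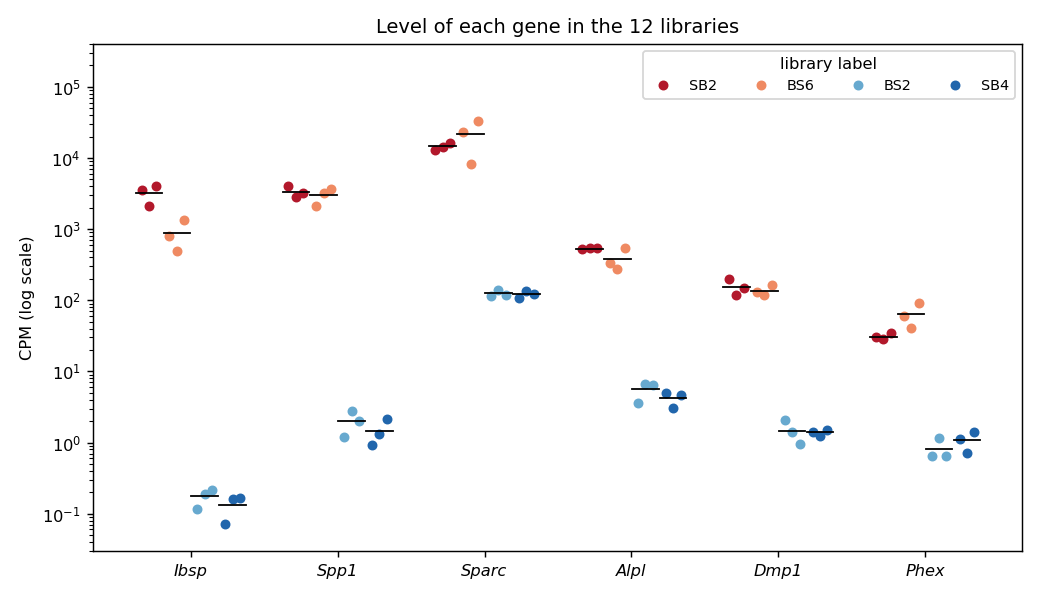
Level of each of the 6 genes in CPM on a log scale, with 1 point per library and a line at the mean of each group of 3. The libraries of SB2 and BS6 lie above every library of BS2 and SB4 in each gene, and Ibsp and Phex are the genes in which SB2 and BS6 do not overlap.

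Ibsp (chr5:104299171-104311469, plus strand), the sialoprotein that seeds mineral, had 3542, 2115 and 3986 CPM in the libraries labelled SB2 and 804, 491 and 1325 CPM in those labelled BS6. Only 1, 3 and 3 reads were counted on it in SB4, and 2, 3 and 3 in BS2. The mean was 3215 ± 978 CPM (SD, n = 3) in SB2 and 873 ± 421 CPM in BS6. With 7 reads in all of SB4, the summed counts of SB2 per library size were 23444-fold higher, with an exact 95% counting interval of 11378 to 58312. With 8 reads in all of BS2, those of BS6 were 5022-fold higher, with an interval of 2549 to 11634. Both differences passed edgeR's quasi-likelihood test (adjusted p = 1.57e-07 for SB4 against SB2 and 1.1e-05 for BS6 against BS2). The intervals cover counting error only, not the spread between libraries, and the reads carry no molecular identifiers.

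Spp1 (chr5:104435118-104441050, plus strand), which encodes osteopontin, had 4030, 2799 and 3194 CPM in SB2 and 2092, 3243 and 3709 CPM in BS6. In SB4 it had 0.922, 1.30 and 2.12 CPM, and in BS2 1.18, 2.75 and 2.03 CPM. The high and the low groups did not overlap, whereas SB2 overlapped BS6 and SB4 overlapped BS2. Spp1 fell by 11.13 on the log2 scale in SB4 against SB2 (standard error 0.28, adjusted p = 1.57e-09) and rose by 10.60 in BS6 against BS2 (standard error 0.49, adjusted p = 8.89e-06). GENCODE M21 places a putative transcript, Gm42793, over part of Spp1 on the same strand, and the count table has no line for it.

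Dmp1 (chr5:104202613-104214102, plus strand), a matrix protein made mainly by osteocytes and odontoblasts, had 201, 117 and 149 CPM in SB2 and 129, 118 and 164 CPM in BS6. Its level was 1.42, 1.25 and 1.504 CPM in SB4 and 2.06, 1.41 and 0.944 CPM in BS2. The values of SB2 and BS6 were interleaved, and so were those of SB4 and BS2. Dmp1 fell by 6.80 on the log2 scale in SB4 against SB2 (standard error 0.30, adjusted p = 1.07e-06) and rose by 6.55 in BS6 against BS2 (standard error 0.30, adjusted p = 9.07e-06).

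Sparc (chr11:55394500-55423183, minus strand), the collagen-binding glycoprotein osteonectin, was the most abundant of the 6 genes in each group, also per length of transcript. It had 12827, 14436 and 16324 CPM in SB2 and 23433, 8345 and 33456 CPM in BS6, where the lowest value was that of replicate 2, the library rich in neutrophil transcripts. Its level in SB4 was 107, 134 and 123 CPM, and in BS2 113, 141 and 120 CPM. Sparc made up 92.6% to 95.4% of the 6 genes' counts in SB4 and 92.0% to 93.7% in BS2, against 60.6% to 72.0% in SB2 and 66.7% to 87.3% in BS6. It fell by 6.90 on the log2 scale in SB4 against SB2 (standard error 0.15, adjusted p = 5.91e-12) and rose by 7.48 in BS6 against BS2 (standard error 0.63, adjusted p = 7.72e-05).

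Alpl (chr4:137741733-137796384, minus strand), the phosphatase that clears pyrophosphate, was the steadiest of the 6 members in SB2, with 522, 545 and 534 CPM and a coefficient of variation of 2.12%. In BS6 it had 334, 279 and 541 CPM, a coefficient of variation of 35.9%. It had 4.89, 3.04 and 4.68 CPM in SB4 and 3.60, 6.72 and 6.46 CPM in BS2. BS6 replicate 3 lay within the range of SB2, and the low groups overlapped each other. Alpl fell by 6.99 on the log2 scale in SB4 against SB2 (standard error 0.14, adjusted p = 7.14e-12) and rose by 6.14 in BS6 against BS2 (standard error 0.40, adjusted p = 2.82e-05).

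Phex (chrX:157162075-157415312, minus strand), the endopeptidase tied to phosphate balance, had the lowest mean level of the 6 genes in SB2 and BS6, also per length. It had 30.2, 28.1 and 34.6 CPM in SB2 and 60.2, 40.8 and 90.4 CPM in BS6, so that each library of BS6 was above each of SB2. Its level was 1.13, 0.707 and 1.39 CPM in SB4 and 0.649, 1.15 and 0.654 CPM in BS2, with overlap. Phex fell by 4.84 on the log2 scale in SB4 against SB2 (standard error 0.19, adjusted p = 7.56e-10) and rose by 6.30 in BS6 against BS2 (standard error 0.42, adjusted p = 3.11e-05). A microRNA gene, a small nucleolar RNA gene and a processed pseudogene lie within its span in GENCODE M21, and none of them has a line in the count table.

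Between day 4 and day 2 of the label brain cortex, 6 of 6 genes were lower in SB4 than in SB2, with a median log2 fold change of -6.95. Of all 17293 genes tested, 28.6% were called lower and 27.8% higher, with a median of -0.01. To be called, a gene needed a log2 fold change beyond 1 in size together with an adjusted p-value below 0.05. Between day 6 and day 2 of the label interparietal bone, 6 of 6 genes were higher in BS6 than in BS2, with a median of 7.01. Here 29.0% of 17311 genes were called higher and 26.5% lower, with a median of 0.02. In bulk tissue, fewer cells of a type and less RNA per cell cannot be told apart.

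Cell markers differed between the same groups, in both directions. The osteoblast markers Runx2, Sp7, Col1a1 and Pth1r were called lower in SB4 than in SB2 and higher in BS6 than in BS2. All 6 measured osteoclast markers did the same, and their sum was 2778 to 3064 CPM in SB2, 1519 to 3333 CPM in BS6, 10.1 to 11.1 CPM in SB4 and 7.85 to 9.44 CPM in BS2, with Atp6v0d2 at 0 in all libraries of SB4 and BS2. All 5 fibroblast markers were likewise lower in SB4 and higher in BS6, with sums of 18771 to 25441 CPM in SB2, 4022 to 26762 CPM in BS6, 4.33 to 10.4 CPM in SB4 and 7.49 to 17.4 CPM in BS2. The 8 neuronal markers, the 6 oligodendrocyte markers and 5 of 6 astrocyte markers went the opposite way in both comparisons, and the astrocyte gene Gja1 went the way of the 6 genes. The activated phagocyte list, which bears on Spp1, summed to 956 to 1119 CPM in SB2, 1121 to 1224 CPM in SB4, 1132 to 1297 CPM in BS2 and 2130 to 2639 CPM in BS6, so that its sum was not lower in SB4 than in SB2. Of its 8 genes 7 were lower in SB4 and higher in BS6, all but Apoe, which was not called. Apoe made up most of the sum in each group, with means of 676 CPM in SB2, 1103 CPM in SB4, 1123 CPM in BS2 and 1945 CPM in BS6. The sum therefore mainly follows Apoe. The endothelial list, which bears on Sparc and Alpl, summed to 715 to 760 CPM in SB2, 157 to 202 CPM in SB4, 121 to 186 CPM in BS2 and 698 to 895 CPM in BS6. The part of each of these cell types in the levels of the 6 genes was not tested.

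**Figure D2:**
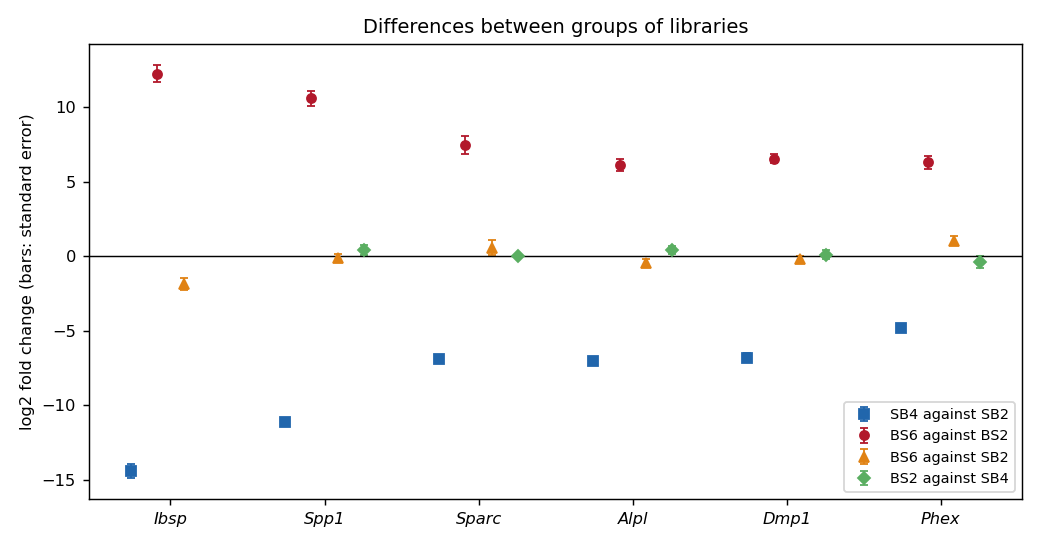
Log2 fold changes of the 6 genes from edgeR in 4 comparisons between groups, with bars of 1 standard error. The changes between days of 1 label run from -14.42 to -4.84 and from 6.14 to 12.27, while those of BS6 against SB2 run from -1.87 to 1.06 and those of BS2 against SB4 from -0.37 to 0.44. The fitted changes of Ibsp against SB4 and BS2 depend on edgeR's prior count, and Ibsp was not tested for BS2 against SB4.

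The same 6 genes were also higher in SB2 than in BS2, both on day 2, and in BS6 than in SB4, the late days. In the first comparison 28.6% of 17252 genes were called higher, and in the second 28.8% of 17298. Sparc was 6.85 higher in SB2 than in BS2 on the log2 scale (adjusted p = 1.06e-12) and Phex 5.21 higher (adjusted p = 7.9e-11). Phex was 5.92 higher in BS6 than in SB4 (adjusted p = 4.43e-05). Ordered by mean level, Ibsp, Spp1, Alpl and Dmp1 ran SB2, BS6, BS2, SB4. The order of Sparc was BS6, SB2, BS2, SB4 and that of Phex BS6, SB2, SB4, BS2. The step between the second and the third group passed the test in each gene. The steps above and below it were not called, except that the lower step of Ibsp was not tested. These comparisons share libraries and are not independent of each other.

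Comparing genes needs a correction for length, since a longer transcript collects more reads. Per kilobase of exon, the mean levels in SB2 ran from Sparc (3836 CPM per kb) over Spp1 (2027), Ibsp (1554), Alpl (132) and Dmp1 (56.4) to Phex (4.92). In BS6 the same order held, with 5740 CPM per kb for Sparc, 1829 for Spp1, 422 for Ibsp, 95.4 for Alpl, 49.5 for Dmp1 and 10.1 for Phex. Ibsp was thus close to Spp1 in SB2 and far below it in BS6. In the low groups Sparc had 32.1 CPM per kb in SB4 and 32.9 in BS2, and the other 5 genes lay between 0.0647 and 1.39 CPM per kb, with Ibsp at the bottom of both groups.

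The 2 bone-rich groups, the libraries labelled BS6 and SB2, were then compared directly. No member was called. Ibsp was lower in BS6 by -1.87 on the log2 scale (standard error 0.42, unadjusted p = 0.00379, adjusted p = 0.0558), and Phex was higher by 1.06 (standard error 0.28, unadjusted p = 0.00834, adjusted p = 0.0761). These were the 2 of 6 members under an unadjusted p of 0.05, beside 29.2% of all genes, and the 2 in which the libraries of the groups did not overlap, beside 38.1%. Across 16329 genes 1.86% were called in either direction, 182 of them higher and 121 lower in BS6, a split that became 125 and 163 with total counts only. DESeq2 called both, with adjusted p = 0.000161 for Ibsp and 0.0078 for Phex, and called 6.48% of all genes. Without BS6 replicate 2, edgeR also called both, at -1.59 (adjusted p = 0.0387) and 1.29 (adjusted p = 0.00621), beside 4.02% of all genes. Without any one library of SB2, or with a replicate block, neither was called and no gene was, with adjusted p up to 0.212 for Ibsp and 0.252 for Phex.

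Of the markers of other cells, Hba-a2, Apoe and Tubb3 were called between these groups. Over all genes 1.86% were called, so the absence of calls in a list does not set its cell type apart. The endothelial, pericyte, astrocyte and fibroblast lists had median log2 fold changes of 0.15, 0.05, 0.05 and 0.12, with none called. The 6 measured erythroid markers summed to 1296, 4609 and 1458 CPM in SB2 and 8510, 12751 and 7746 CPM in BS6, with a median log2 fold change of 2.40, and Hba-a2 was called (2.46, adjusted p = 0.0388). The neutrophil lineage markers had a median of 3.00, with 931 to 1610 CPM in SB2 beside the values of BS6 above, and none of the 6 was called. Apoe, the most abundant gene of the phagocyte list that bears on Spp1, was higher in BS6 by 1.54 (adjusted p = 0.0263). The 8 neuronal markers had a median of 0.62 and 7 were not called, while Tubb3 was lower in BS6, with -1.14 (adjusted p = 0.0458). Their part in the members' levels was not tested.

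The other 4 genes overlapped between these groups. Spp1 had a log2 fold change of -0.13 (standard error 0.28, adjusted p = 0.785), Dmp1 of -0.17 (0.22, 0.646), Alpl of -0.46 (0.25, 0.267) and Sparc of 0.59 (0.50, 0.465). The median over the 6 genes was -0.15 and over all genes 0.02. BS6 varied more than SB2 in 5 of the 6 genes, with a coefficient of variation of 58.1% against 12.05% in Sparc, 48.2% against 30.4% in Ibsp and 39.2% against 10.6% in Phex. Dmp1 was the exception, with 17.5% in BS6 and 27.2% in SB2. BS6 replicate 2 was the lowest of its group in 5 genes, and only in Spp1 was replicate 1 lower.

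A ratio of 2 genes within a library does not depend on the size of the library. For every 100 counts of Ibsp there were 0.852, 1.33 and 0.867 counts of Phex in SB2 and 7.48, 8.32 and 6.83 in BS6. The ratio was thus 7.56-fold higher in BS6 by geometric means, and it was alike in all 3 libraries of BS6, the one rich in neutrophil transcripts included. Dmp1 stood at 5.68, 5.55 and 3.73 per 100 counts of Ibsp in SB2 and at 16.0, 24.0 and 12.4 in BS6, 3.43-fold higher. Alpl stood at 14.7, 25.8 and 13.4 in SB2 and at 41.6, 56.8 and 40.8 in BS6, 2.67-fold higher. Spp1 stood at 114, 132 and 80.1 in SB2 and at 260, 661 and 280 in BS6, 3.42-fold higher. All 4 ratios share the counts of Ibsp, are not independent and were chosen after the levels had been seen.

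**Figure D3:**
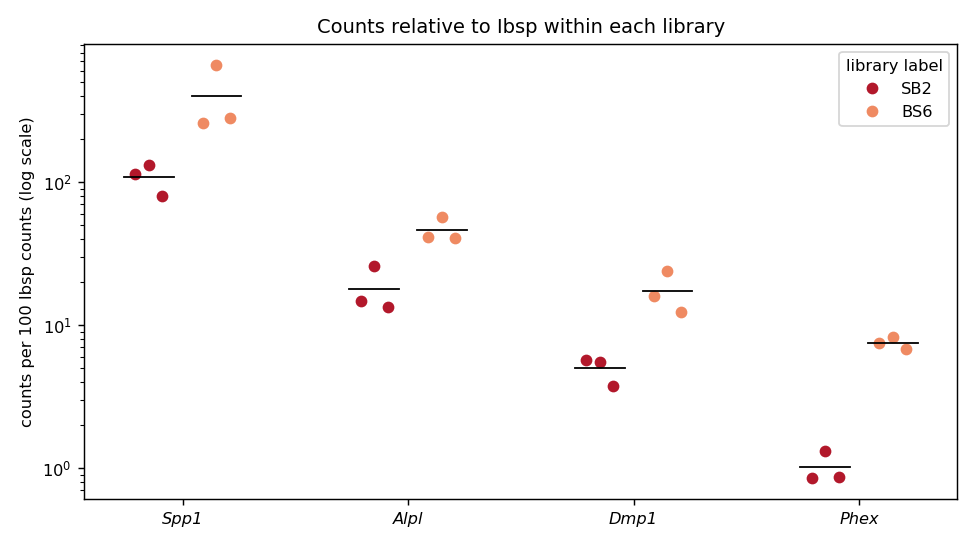
Counts of Spp1, Alpl, Dmp1 and Phex per 100 counts of Ibsp on a log scale, with 1 point per library of SB2 and BS6 and a line at each mean. In each of the 4 genes the libraries of BS6 lie above those of SB2, and Phex is farthest apart, at 7.54 ± 0.747 against 1.02 ± 0.271.

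Other reference genes were taken as well. Ibsp per 100 counts of Col1a1 was 10.5, 6.31 and 10.9 in SB2 and 1.49, 2.72 and 1.73 in BS6, 4.68-fold higher in SB2. Per 100 counts of Sp7, a transcription factor of osteoblasts, Ibsp had 1183, 840 and 1307 counts in SB2 and 434, 342 and 303 in BS6, 3.07-fold higher in SB2. Phex per 100 counts of Sp7 was 10.1, 11.2 and 11.3 in SB2 and 32.4, 28.4 and 20.7 in BS6, 2.46-fold higher in BS6. Phex per 100 counts of Dmp1 was 15.01, 23.9 and 23.2 in SB2 and 46.7, 34.6 and 55.2 in BS6, 2.20-fold higher in BS6, and per 100 counts of Col1a1 it was 1.62-fold higher. The groups did not overlap in any of these 9 ratios. Each is built on Ibsp or Phex, the members already seen not to overlap between these groups, so the ratios are a description and add no independent support. None passed a test, since the two-sided exact permutation p was 0.1 for each, the smallest that 3 against 3 libraries allow.

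At their low levels, in the libraries labelled SB4 and BS2, no member was called between the groups. Of the 5 genes tested, none was called by edgeR, and none of the 4 to which DESeq2 gave an adjusted p, all but Phex, was called by it. By edgeR none had an unadjusted p under 0.05 and none had groups without overlap. Across 16278 genes edgeR called 0.147% and DESeq2 0.264%, 11.9% had an unadjusted p under 0.05 and 16.5% had groups that did not overlap. Without BS2 replicate 1, 2 of 5 members were under an unadjusted p of 0.05, beside 9.24% of all genes, and without SB4 replicate 3 it was 1, none of them called. In BS2 against SB4, Spp1 had a log2 fold change of 0.44 (standard error 0.35, adjusted p = 0.672) and Alpl of 0.43 (0.24, 0.527). Sparc had 0.05 (0.08, 0.859), Dmp1 0.12 (0.32, 0.926) and Phex -0.37 (0.39, 0.769). Ibsp was at or under 3 counts in all 6 libraries and was not tested. For Dmp1 and Phex, with 9 to 35 counts per library, this depth leaves a wide error.

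The change over time had opposite directions under the labels. The difference between the changes, BS6 minus BS2 less SB4 minus SB2, was tested over all 12 libraries. It was called for 6 of 6 genes, and for 73.6% of all 18068 genes tested. On the log2 scale it was 11.15 for Phex (standard error 0.50, adjusted p = 1.93e-09), 13.14 for Alpl, 13.35 for Dmp1, 14.39 for Sparc and 21.76 for Spp1. The fitted value for Ibsp depends on the prior count.

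The SIBLING genes have neighbours with other levels. From Sparcl1 to Pkd2 the stretch of chromosome 5 includes Sparcl1, Dspp, Dmp1, Ibsp, Mepe, Spp1 and Pkd2, together with the antisense gene Gm26703 and the putative transcript Gm42793 named above. Sparcl1, a relative of Sparc that astrocytes express strongly, has its 5′ end at -185.4 kb from that of Ibsp and rose by 3.81 on the log2 scale in SB4 against SB2 (adjusted p = 1.42e-10). It fell by 2.91 in BS6 against BS2 (adjusted p = 1.85e-05), the opposite of its bone neighbours. Gm26703 lies antisense over the 5′ end of Sparcl1, and without a stated use of strand the reads of both cannot be told apart there. Dspp, which is known from dentin, had at most 13 counts in any library and was not tested. Pkd2, a channel gene, starts 160.3 kb after Ibsp and fell by 1.75 (standard error 0.09) and rose by 1.72 (standard error 0.20) in these comparisons. Mepe, another member of the family, was not analysed here.

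**Figure D4:**
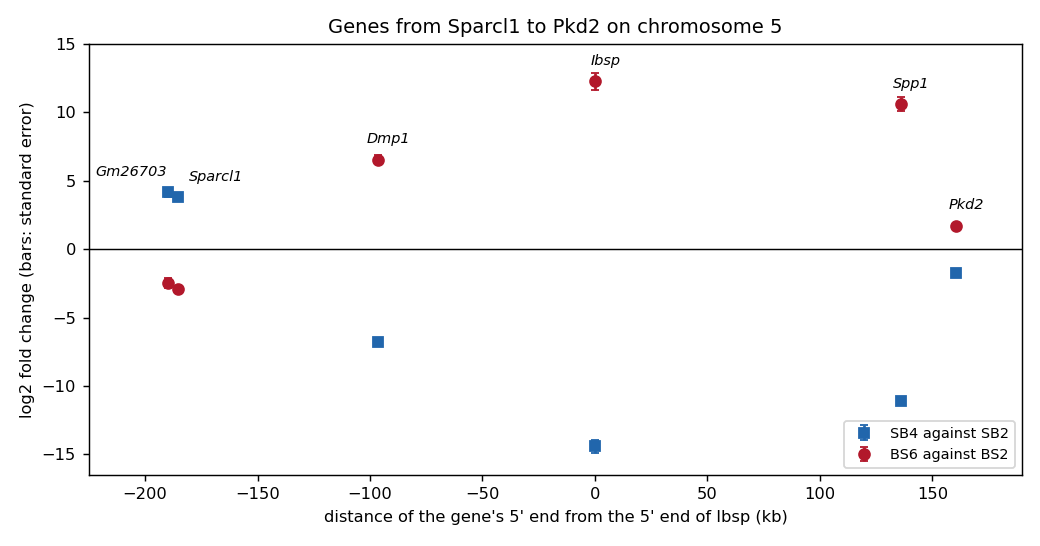
Log2 fold change from edgeR against the distance of each gene's 5′ end from the 5′ end of Ibsp in kb, for the tested genes between Sparcl1 and Pkd2, with bars of 1 standard error. Dmp1, Ibsp, Spp1 and Pkd2 are below 0 for SB4 against SB2 and above 0 for BS6 against BS2, and Sparcl1 and Gm26703 are the reverse. The value for Ibsp is the fitted one and depends on the prior count.

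Related genes were counted from lists of their function. Of the bone matrix proteins, 9 were tested, and 8 were lower in SB4 than in SB2 and higher in BS6 than in BS2, with medians of -8.32 and 7.04. Col1a1 moved most among the called, with -13.39 (standard error 0.20, adjusted p = 1.02e-12) and 12.76 (0.92, 4.33e-05), and Clec11a least in the first comparison, with -5.87. Bglap3, a relative of osteocalcin whose reads may be shared with its close copies, had 0.27 (adjusted p = 0.294) and -1.30 (adjusted p = 0.14) and was not called. Bglap, Bglap2, Mepe and Ifitm5 were not analysed here.

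Of the regulators of phosphate and mineralization, 12 were tested, and 9 were lower and 1 higher in SB4 than in SB2 (median -2.46), and 10 were higher and 1 lower in BS6 than in BS2 (median 2.50). Vdr, the receptor of vitamin D, had the largest values of this list, with -6.71 (standard error 0.16, adjusted p = 1.39e-11) and 7.35 (0.51, 3.68e-05). Enpp1, which makes the pyrophosphate that Alpl removes, had -5.33 (adjusted p = 6.7e-10) and 4.43 (adjusted p = 0.000159). Slc20a1, a phosphate transporter, went the other way with 1.61 (adjusted p = 1.38e-09) and -1.52 (adjusted p = 0.000509). Ank, which carries pyrophosphate out of cells, was called in neither comparison.

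Among the relatives of the members, the SPARC family was divided. Spock1, Spock3, Spock2 and Sparcl1 were higher in SB4 than in SB2, by 7.01, 6.16, 4.32 and 3.81, whereas Fstl1, Smoc2 and Smoc1 were lower, with -5.29, -4.70 and -4.26. All 7 were called in the opposite direction in BS6 against BS2. Of the M13 endopeptidases, the family of Phex, Mme (-2.15, adjusted p = 7.27e-09) and Ece1 (-1.54, adjusted p = 2.6e-09) were lower in SB4, Ecel1 was higher (3.58, adjusted p = 4.06e-05), and Ece2 and Mmel1 were not called. In BS6 against BS2 the same 3 were called in the opposite direction. Among receptors of osteopontin and bone sialoprotein, Cd44, Itgb5, Itgb3, Itgb1 and Itga9 were lower in SB4 than in SB2, from -7.06 for Cd44 to -2.80 for Itga9, and higher in BS6 than in BS2. Itgav (-0.02, adjusted p = 0.805) and Itga4 (0.54, adjusted p = 0.00335) were not called. Alpi, Akp3 and Alppl2, the other alkaline phosphatases, were not analysed here.

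None of the related genes tested in BS6 against SB2 was called, where 1.86% of all genes were, so the absence of calls does not set these genes apart. Sost, the Wnt inhibitor of osteocytes, came with the largest value of the phosphate list, 2.33 (standard error 0.70, adjusted p = 0.0953). It had 0.683, 1.13 and 2.01 CPM in SB2 and 7.37, 1.81 and 10.1 CPM in BS6, with overlap. Pdpn, the other osteocyte marker tested, went the other way and was not called either. Its mean was 119 ± 20.7 CPM (SD, n = 3) in SB2 and 67.3 ± 28.0 CPM in BS6. Mme, the relative of Phex with the lowest value, had -1.08 (adjusted p = 0.0813) where Phex had 1.06. Enpp1 had -1.17 (adjusted p = 0.1). The medians were -0.22 for matrix proteins, 0.01 for regulators, 0.60 for the SPARC family, -0.36 for M13 endopeptidases and -0.37 for the receptors.

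**Figure D5:**
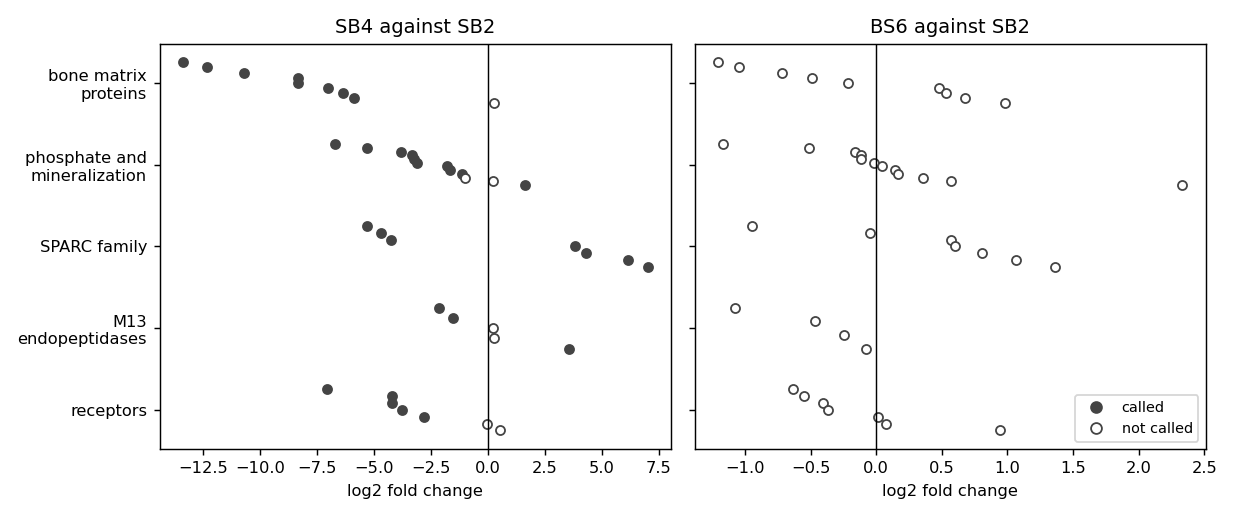
Log2 fold changes from edgeR of the related genes by list, with 1 point per gene, for SB4 against SB2 on the left and BS6 against SB2 on the right, on axes of different range. Filled points were called. On the left most matrix, regulator and receptor genes lie below 0, and the SPARC family lies on both sides. On the right no point is filled.

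The genes most like each member were sought by Pearson's r of log2(CPM + 1) over the 12 libraries, among 11373 genes whose mean reached 10 CPM. They were Mmp13 for Ibsp (r = 0.9987), Tgfb1 for Spp1 (0.9986), Fgfr1 for Sparc (0.9990), Aqp1 for Alpl (0.9975), Gas1 for Dmp1 (0.9971) and Cpxm2 for Phex (0.9967). The 12 libraries fall into a bone-rich and a brain-rich set, so any gene that separates these sets comes near to such values. Over the 6 libraries of SB2 and BS6 the closest genes were others, Col1a2 for Sparc (r = 0.9962), Eif3m for Ibsp (0.9991) and Traf6 for Phex (0.9992). Among the members themselves, Ibsp had r = 0.864 with Alpl and -0.483 with Phex there. With 6 libraries and 10576 genes these values are a description only.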

How the data were processed

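Poly(A) RNA of the 12 libraries was sequenced in paired-end mode. After trimming with fastp and alignment to mm10 with HISAT2 2.1.0, the authors deposited raw read counts for each gene symbol, with no normalization applied. The counting program, its annotation and its use of strand are not given in the sources used here, and it is unknown whether the table was made before or after the ComBat_seq batch correction. Genes that overlap or have close copies are therefore uncertain. Of 22317 symbols, 22022 were matched to GENCODE M21, the source of coordinates and exon lengths. All columns matched a labelled sample, and no pair of libraries in a group agreed within sampling noise.

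Counts were compared in fits of 2 groups with edgeR 4.0.16 in R 4.3.3, after filterByExpr with a minimum count of 10, with TMM factors, robust dispersion, the quasi-likelihood test and Benjamini-Hochberg adjustment over all genes tested. The difference of the changes over time was fitted over all 12 libraries. Every adjusted p is from this test unless DESeq2 1.42.0 is named. Calls needed an adjusted p below 0.05 and a log2 fold change beyond 1 in size. Standard errors were obtained by dividing each log2 fold change by the root of its F statistic. Levels are CPM with TMM factors over all 12 libraries. The code was tested on simulated data. The alternatives were DESeq2, upper-quartile or RLE factors, library totals only, no filter, a mean of at least 10 counts, a replicate block, all 12 libraries in one fit, the adjusted p alone, and leaving out each library.

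The named genes were the 6 members, up to 4 genes of each related list with the largest and smallest log2 fold changes, the list members needed to account for a count, and the genes most alike in pattern. The members and lists were chosen with earlier results of these data known, and the ratios between genes and the neighbours on chromosome 5 after their values were seen. One listed marker is not reported here.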

Additional observations from a re-analysis of the deposited data

Results flagged for a closer look

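The difference between the changes over time, BS6 minus BS2 less SB4 minus SB2 on the log2 scale, singled out each of the 6 genes, since every one fell under the label brain cortex and rose under the label interparietal bone. It was 26.71 for Ibsp (standard error 0.83, edgeR adjusted p = 1.23e-10), a fitted value that depends on the prior count because Ibsp had at most 3 counts in every library of SB4 and BS2. It was 21.76 for Spp1 (0.63, 6.58e-11), 14.39 for Sparc (0.67, 2.65e-09), 13.14 for Alpl (0.48, 4.34e-10), 13.35 for Dmp1 (0.42, 1.13e-10) and 11.15 for Phex (0.50, 1.93e-09). In this contrast 73.6% of all genes tested were called. The neuronal markers summed to 36.0 to 82.9 CPM in the libraries labelled SB2 and 8265 to 8376 CPM in those labelled BS2, so the difference cannot be told apart from the content of the day 2 libraries.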

How the results depend on the processing

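All 6 genes kept their direction and their call in SB4 against SB2 and in BS6 against BS2 under each of 84 combinations of gene and alternative per comparison, likewise in SB2 against BS2 and BS6 against SB4, and under 114 for the difference of the changes. In BS6 against SB2, 74 of 84 were unchanged. There the number of genes called was 303, against 1058 with DESeq2, 1273 with all 12 libraries in one fit, 932 by the adjusted p alone, and 0 to 667 when a library was left out (667 without BS6 replicate 2, 34 without BS6 replicate 1, 32 without BS6 replicate 3, and 0 without any one library of SB2, where 2938 to 3494 genes had an unadjusted p under 0.05). The number of members called was 0, against 2 with DESeq2, 1 with total counts only (Ibsp), 2 with all 12 libraries in one fit, and 0 to 2 when a library was left out. Over its alternatives Ibsp ran from -2.30 to -1.59 (adjusted p 0.000161 to 0.212) and Phex from 0.72 to 1.29 (0.00621 to 0.252). Sparc reached 0.98 without BS6 replicate 2 (adjusted p = 0.0139), short of the fold threshold. In BS2 against SB4 the number of genes called was 24, against 43 with DESeq2, 50 without a filter, 8 with all 12 libraries in one fit, 153 by the adjusted p alone, and 18 to 85 when a library was left out (59 without BS2 replicate 1, 41 without SB4 replicate 2 and 85 without SB4 replicate 3). Signs turned for small uncalled values when a library was left out, where Spp1 ran from -0.31 to 0.078 and Dmp1 from -0.35 to 0.052 in BS6 against SB2, and Dmp1 from -0.22 to 0.34 and Sparc from -0.040 to 0.12 in BS2 against SB4. The causes were not tested. Libraries with the same replicate number did not deviate together, with correlations of -0.09 to 0.06, and share only a number. The replicate block left 0 genes called in BS6 against SB2, with 3950 at an unadjusted p under 0.05, and gave 61 in BS2 against SB4. The median of all genes moved to -0.14 with upper-quartile factors and to -0.11 with total counts in SB4 against SB2, and to 0.20 with upper-quartile factors in the difference of the changes. The member value nearest to 0 under any alternative was that of Phex in both, -4.56 and 10.76. The depth limits Ibsp in SB4 and BS2, where 3 counts or fewer per library leave a wide counting interval.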
